A study of Mus musculus with 6 samples.

Results

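H3K9me3 peaks whose summit lay in an exon, away from any transcript start, were described in C2C12 cells, an established line of mouse myoblasts, the precursors of muscle fibres. ChIP-seq, the sequencing of DNA precipitated with an antibody against the mark, gave a deposited list of 80480 H3K9me3 peaks. A peak was taken when it was shorter than 2000 bp and when its summit, the base of highest read pile-up, lay in an annotated exon of a protein-coding gene and over 1 kb from every annotated start. These conditions were met by 1604 peaks, or 1.99% of the list (exact 95% interval 1.90-2.09), and the choice used position and length only. They lay in exons of 1140 of the 20111 protein-coding genes with exon sequence over 1 kb from a start, so that 5.67% of these genes held at least 1.

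H3K9me3, the trimethylated form of lysine 9 of histone H3, is a mark of silent chromatin that covers repeats, imprinted loci and some gene families. Setdb1 is a methyltransferase that places this mark and is brought to DNA mainly by KRAB zinc finger proteins through the corepressor Kap1. Genes of zinc fingers of the C2H2 type, in which a pair of cysteines and a pair of histidines hold a zinc ion, usually carry the whole row of fingers in their last exon, and the mark is known to lie over the 3' part of many such genes.

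The H3K9me3 library and its input came from untreated cells grown in medium with serum, as did a Setdb1 library and an input of its own. The labels also name Setdb1 libraries from cells given DMSO or the signalling protein Wnt3a. Each group was 1 library of 1 cell line, and the single Setdb1 list does not name the library it came from. No effect of DMSO or Wnt3a was analysed here, and no value below could be checked against a replicate. All intervals below are exact 95% intervals that cover counting error only, and peaks of 1 gene share their source. The lists used here gave no library totals, and depth is therefore known only through the reads (tags) of each peak.

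The sequences of 4 peaks are shown on the coding strand, 5' to 3', with coordinates on mm9. All are coding sequence at the summit. The first 2 came from finger arrays of last exons and are shown because they carry the repeat that is counted further on over the whole list. Capitals mark the bases that encode TGEKP, the linker between neighbouring C2H2 fingers.
Zfp442, chr2:150234936-150235235, minus strand: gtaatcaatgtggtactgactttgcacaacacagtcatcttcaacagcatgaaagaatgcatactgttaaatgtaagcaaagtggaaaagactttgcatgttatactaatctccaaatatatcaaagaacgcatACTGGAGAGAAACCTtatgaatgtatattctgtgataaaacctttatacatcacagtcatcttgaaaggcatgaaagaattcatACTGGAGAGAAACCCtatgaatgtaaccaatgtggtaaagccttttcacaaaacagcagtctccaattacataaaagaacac
5430403G16Rik, chr5:110105272-110105571, minus strand: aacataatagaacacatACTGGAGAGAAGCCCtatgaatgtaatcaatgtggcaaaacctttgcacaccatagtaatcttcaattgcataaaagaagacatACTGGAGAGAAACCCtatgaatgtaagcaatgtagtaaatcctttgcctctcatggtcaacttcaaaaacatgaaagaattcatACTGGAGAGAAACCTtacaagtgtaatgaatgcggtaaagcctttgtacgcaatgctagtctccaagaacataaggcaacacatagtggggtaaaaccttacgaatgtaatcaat
Zfp442 had 2 linkers in its 300 bases and 5430403G16Rik had 3. Their GC contents were 34.7% and 37.0%. Both lay in exon 4 of 4, and the genes encode 17 and 19 fingers.

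The other 2 sequences came from strong exonic peaks that overlapped a Setdb1 site and are shown for their base composition. Capitals mark CG dinucleotides.
Hspa2, chr12:77506528-77506827, plus strand: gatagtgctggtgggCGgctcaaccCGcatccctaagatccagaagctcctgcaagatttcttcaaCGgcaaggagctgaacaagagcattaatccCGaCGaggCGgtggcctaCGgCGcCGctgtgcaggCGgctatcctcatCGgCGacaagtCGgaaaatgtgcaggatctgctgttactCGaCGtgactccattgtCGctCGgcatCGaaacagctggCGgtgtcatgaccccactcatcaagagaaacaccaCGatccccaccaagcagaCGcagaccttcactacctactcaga
Insm2, chr12:56701019-56701318, plus strand: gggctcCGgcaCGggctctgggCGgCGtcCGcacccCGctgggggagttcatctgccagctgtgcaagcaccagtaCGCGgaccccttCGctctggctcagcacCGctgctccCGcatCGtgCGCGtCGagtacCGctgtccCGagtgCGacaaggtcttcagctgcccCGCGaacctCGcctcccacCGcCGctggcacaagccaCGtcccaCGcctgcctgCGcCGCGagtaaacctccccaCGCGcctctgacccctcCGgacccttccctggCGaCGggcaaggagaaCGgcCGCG
Insm2 had 36 CG dinucleotides in 300 bases and Hspa2 had 21, with GC contents of 71.3% and 56.3%. Insm2 also encodes C2H2 fingers, 4 in all. The 2 kinds overlapped in base composition beyond the sequences shown, since Setdb1 peaks at Fmo5, Acsl3 and Zfp951 had 36.0%, 36.7% and 42.0% GC. Hspa2 was read in exon 2 of 2, and Insm2 has 1 exon.

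Exonic peaks were about as dense as intronic ones. There were 28.0 peaks per Mb (26.6-29.4) of distal exon sequence, where distal means over 1 kb from every start, against 29.5 (29.1-29.8) in distal introns, 32.4 (32.1-32.7) between genes and 30.5 (29.4-31.5) within 1 kb of a start. The ratio of exon to intron density was 0.950 (0.903-0.999), and its interval ended just under 1. Lengths counted every assembled base, also where reads do not align uniquely, and what this did to the ratio was not tested. The median exonic peak was 444.5 bp long, had 20 tags and was enriched 5.72-fold over input, against 422 bp, 18 tags and 5.50-fold in the whole list. A MACS p-value below 1e-05 was reached by 730 of the exonic peaks (45.5%, 43.1-48.0) and by 38.5% of the list. The false discovery rate had a median of 1.85% and a highest value of 5.79% among the exonic peaks, and 23 were at or below 1%. The limit on length took out 82 exonic peaks with a median enrichment of 11.68-fold. Just inside it was a 1945 bp peak in Zfp647, a zinc finger gene, at 9.42-fold, and just outside a 2000 bp peak in Ldoc1l at 8.08-fold.

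By exon class, 707 summits lay in last exons, 565 in internal exons, 48 in first exons, 81 in the exon of single-exon transcripts, 86 in bases whose class differed between transcripts (mixed) and 117 in exons of noncoding transcripts of protein-coding genes. Last exons held 24.5 peaks per Mb (22.8-26.4) and internal exons 28.5 (26.2-31.0), a ratio of 0.860 (0.769-0.962). Without Ttn, the gene with most exonic peaks (left out after its values had been seen), the ratio was 0.902 (0.805-1.01), and with peaks of p below 1e-05 only it was 0.903 (0.762-1.07). Both intervals include 1. The few first exons that reach over 1 kb from a start held 180.5 peaks per Mb (133.1-239.3), single exons 81.3 (64.6-101.0) and mixed bases 64.6 (51.7-79.8). Clustered protocadherin genes held 13 of the 48 first exon peaks, 10 of the 81 single exon peaks and 7 of the 86 mixed ones. Densities without these genes were not computed. Exons of noncoding transcripts were lowest, at 19.2 (15.9-23.0).

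The order of last and internal exons turned when coding sequence was compared on its own. Last exons consist mostly of 3' UTR (untranslated region), which held 397 peaks at 16.9 per Mb (15.3-18.6). The coding part of last exons held 308 at 58.7 per Mb (52.3-65.6), 3.47 times as many per base (2.98-4.04). Coding sequence of internal exons held 550 peaks at 28.5 per Mb (26.2-31.0), close to introns. Coding last exons were thus 2.06 times as dense as coding internal exons (1.79-2.37). The ratio was 2.37 (1.54-3.80) within genes encoding 3 or more C2H2 fingers and 1.56 (1.32-1.84) in all other genes.

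**Figure D1:**
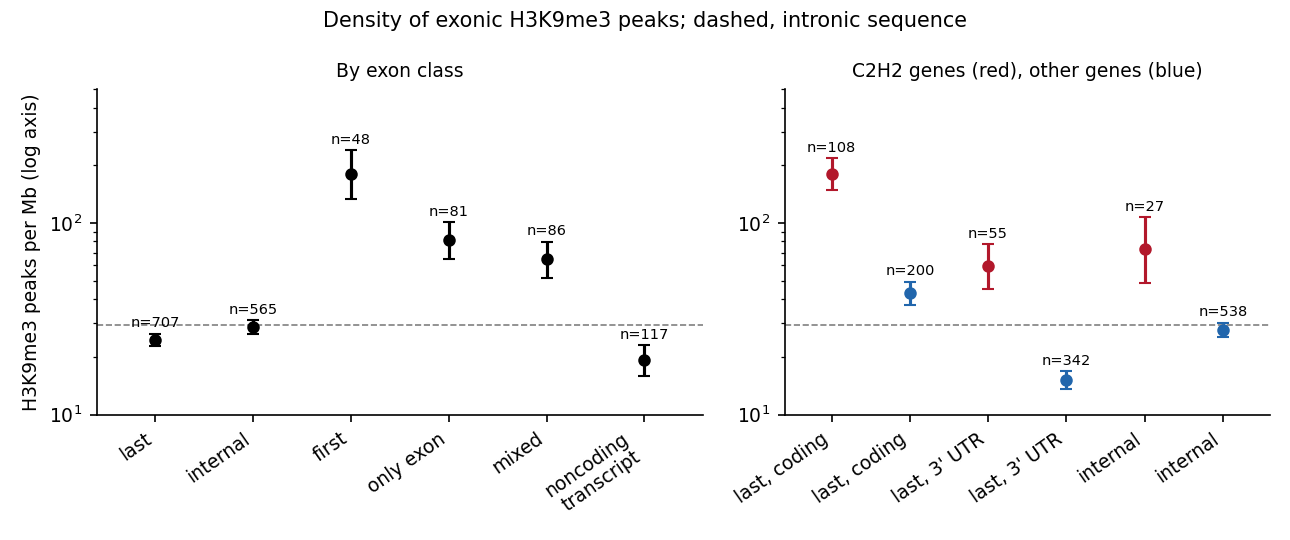
Density of exonic H3K9me3 peaks per Mb of distal exon sequence on a log axis, by exon class (left) and for C2H2 genes (red) and other genes (blue) by part of the gene (right). Points are densities, bars exact 95% Poisson intervals, n is the number of peaks, and the dashed line is the intronic density of 29.5. Coding last exons of C2H2 genes stood at 180.1 peaks per Mb and the 3' UTRs of other genes at 15.2.

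Taken over all genes, 1031 summits lay in coding sequence (39.3 per Mb, 36.9-41.8), 437 in 3' UTRs (17.9, 16.3-19.7) and 19 in 5' UTRs (34.1, 20.5-53.2). Peaks in internal exons mostly reached beyond them. The exon holding the summit had a median length of 206 bp for internal exons, and exon sequence made up a median of 50.0% of the peak. Exon made up under 50% of the peak for 282 of the 565 internal peaks and for 35 of the 707 last exon peaks. The whole peak was exonic for 92 internal peaks (16.3%) and 500 last exon peaks (70.7%). Exonic summits had a median GC content of 50.7% over 300 bases, above the 46.9% of the distal exon sequence they were drawn from. Intronic summits had 46.7% and intronic sequence 42.3%, a gap of like size. Along last exons, cut into 20% bins from the 5' end, the peaks of C2H2 genes numbered 34, 40, 27, 33 and 29, and those of other genes 126, 128, 105, 100 and 85, so neither set sat at one end. The part of base composition in the densities was not tested.

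Enrichment differed less between classes than density did. The median was 5.97-fold in last exons and 5.50-fold in internal exons, a difference of 0.47 with order-statistic bounds of -0.25 to 0.68. In coding exons of 1 transcript per gene the difference was 0.68 (0.45 to 0.68), and without zinc finger genes it was 0 (-0.28 to 0.45). It was 6.01 in first exons, 5.55 in single exons, 6.18 in mixed bases and 5.56 in exons of noncoding transcripts. Within last exons the C2H2 genes had a median of 6.87 and the other genes 5.50, the same as internal exons.

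**Figure D2:**
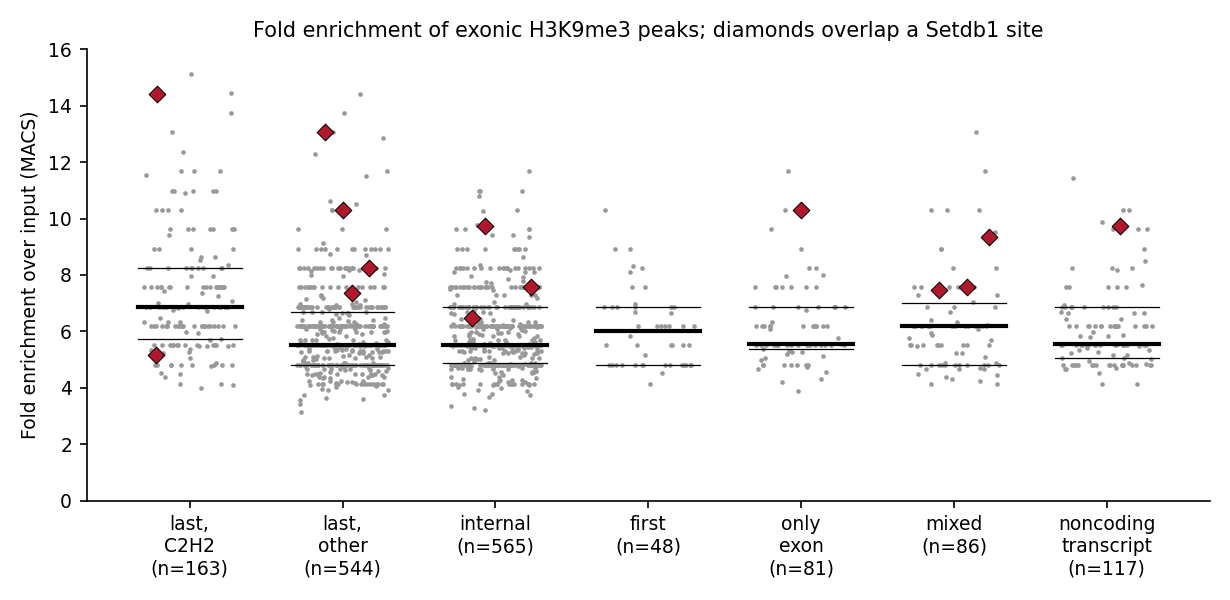
Fold enrichment over input for each of the 1604 exonic peaks by exon class, with last exons split into C2H2 genes and other genes. Thick lines are medians and thin lines quartiles. Red diamonds are the 14 peaks that overlap a Setdb1 site, of which 13 lie above the median of their class.

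A fold of 10 or more, a limit chosen after the values were seen, was reached by 52 exonic peaks. Of these, 33 lay in last and 7 in internal exons, 40 in coding sequence and 27 in C2H2 genes. Over all 1604 exonic peaks the same counts were 707, 565, 1031 and 231. The highest was in the last exon of Zfp110 (15.12-fold, 132 tags), a zinc finger gene that the study named. Next among last exon peaks with 20 or more tags were those of Gm13152 (14.45), Scrt2 (14.43), 2210016F16Rik (14.43), 4922501C03Rik (13.74) and Zfp442 (13.74). Hspa2, Zfp72 and Eif4g2 stood at 13.06 each, followed by Zfp503 (12.85), 5430403G16Rik (12.37) and Zfp706 (12.30). Eif4g2, a translation initiation factor of the eIF4G family, had its peak at the end of its 3' UTR, and Zfp706, 2210016F16Rik and 4922501C03Rik had theirs in the 3' UTR as well. The other 8 had coding summits. Only 26.1% of the Gm13152 peak was exon, against 86.2% in Zfp442 and 100% in Scrt2, Hspa2, Zfp503 and 5430403G16Rik.

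Internal exons reached lower values. The 8 strongest with 20 or more tags ran from 9.78-fold in Jph2, which encodes junctophilin of the muscle triad, to 11.68-fold in Elp3, a subunit of Elongator. Between them were Gtf3c1, a subunit of TFIIIC (10.99), Il21r, a cytokine receptor (10.99), C230081A13Rik (10.96), Tgm5, a transglutaminase (10.79), Ksr2, a scaffold of the Ras pathway (10.31), and Zfhx3, a large zinc finger homeodomain factor (10.28). Exon made up 8.26% of the Elp3 peak and 16.2% of the Il21r peak, and both were mostly intronic intervals with an exonic summit. C230081A13Rik and Zfhx3 were mainly exonic, at 94.4% and 76.9%, and their exons were 3236 and 2768 bp long.

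Zinc finger genes carried exonic peaks more often than other genes. Of 620 genes with 3 or more C2H2 fingers and distal exon sequence, 145 held a peak (23.4%, 20.1-26.9). Their 231 peaks gave 104.8 per Mb (91.8-119.3) against 24.9 (23.6-26.3) in all other genes, a ratio of 4.21 (3.64-4.84). The ratio was 5.37 (4.48-6.41) in last exons and 2.65 (1.73-3.90) in internal exons. Zinc finger genes chosen by symbol instead held 165 peaks in 109 of 511 genes, and their ratio was 3.78 (3.20-4.44). Of the 231 peaks, 163 lay in last exons, 27 in internal and 22 in mixed ones. SICER, which calls broad islands, had an island over 197 of the 231 (85.3%, 80.04-89.6), and over 68.4% (65.9-70.8) of the exonic peaks of other genes.

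The share of genes with an exonic peak was higher with more fingers. It was 5.09% (4.78-5.41) for the 19319 genes without a finger, 6.98% (3.66-11.9) with 1 or 2, 14.2% (9.32-20.4) with 3 to 5, 20.3% (14.3-27.4) with 6 to 9 and 30.4% (25.2-36.0) for the 293 genes with 10 or more. Peak density followed the same order from 3 fingers upwards, at 56.5 (39.6-78.2), 94.98 (70.9-124.5) and 140.2 per Mb (118.1-165.1). The shares without a finger and with 1 or 2 had overlapping intervals, as had those of 3 to 5 and 6 to 9, while genes with 10 or more lay above those with 3 to 5. Median distal exon length did not rise over these 3 bins, being 3139, 2769 and 2805 bp.

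Within C2H2 genes the peaks were densest over the fingers themselves. A finger array, taken from the first to the last finger of the longest coding transcript, could be placed in 629 genes and held 108 summits at 175.7 per Mb (144.1-212.1). Other coding sequence of these genes held 51 at 121.4 (90.4-159.6), UTRs 53 at 69.4 (52.0-90.8) and introns 1331 at 68.9 (65.3-72.7). Arrays were 2.55 times as dense as the introns of the same genes (2.08-3.10) and 1.45 times as dense as their other coding sequence (1.03-2.06). UTRs and introns could not be told apart, with a ratio of 1.01 (0.751-1.33). Introns of C2H2 genes were themselves above the 29.5 per Mb of all introns.

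**Figure D3:**
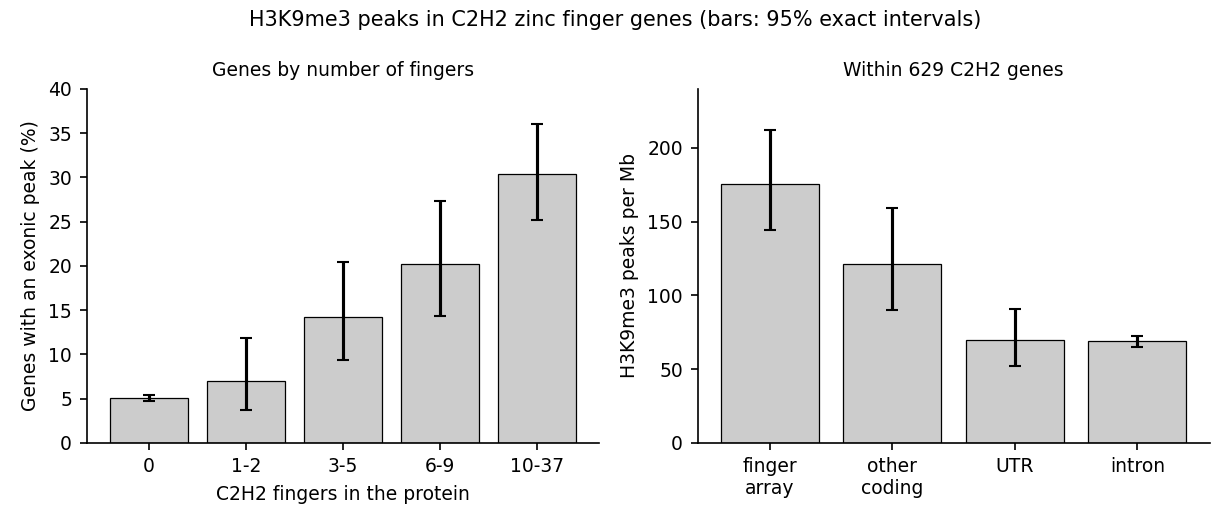
Left, the share of genes with an exonic H3K9me3 peak by the number of C2H2 fingers in the protein. Right, peaks per Mb in the finger array, other coding sequence, UTRs and introns of 629 C2H2 genes. Error bars are exact 95% intervals. The share went from 5.09% to 30.4% and the density from 68.9 in introns to 175.7 in arrays.

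The linker shown in capitals above was searched as any DNA that encodes TGEKP, on both strands, in the 300 bases around each summit. It was present at 236 of the 80480 summits (0.293%) and at 88 of the 1604 exonic ones (5.49%, 4.42-6.72). Among coding last exon peaks of C2H2 genes it was present at 69 of 108 (63.9%, 54.1-72.9), and among exonic peaks of genes with fewer than 3 fingers at 3 of 1373. These counts follow from where the summits lay, since arrays are made of this repeat. Summits in last exons of C2H2 genes had a median GC content of 42.3%, lower than the 52.3% of internal exon summits.

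Many C2H2 genes sit in clusters, and many of their peaks did as well. Grouped by gaps of at most 1 Mb, the peaks formed 83 groups, lone peaks included. The 13 groups with 5 or more peaks held 111 of the 231. Among these, the 6 peaks of Prdm16 and the 5 of Zfhx3 each lay in 1 gene and were no gene cluster. The largest was on chromosome 13 (67240375 to 67927853), where 26 peaks lay in 11 genes, among them Zfp759, Zfp458 and Zfp273, at 4.40- to 11.68-fold. Chromosome 17 had 11 peaks in 6 genes, among them Zfp820 and Zfp758, and 9 in another 6, among them Zfp472 and Zfp101. A group on chromosome 7 had 10 peaks in 8 genes, all in last exons. Exonic peak density over whole chromosomes was highest on chromosome 17 at 51.3 per Mb (42.5-61.5) and chromosome 13 at 47.3 (38.4-57.6). C2H2 genes held 25 of the 118 peaks on chromosome 17 and 37 of the 98 on chromosome 13. Chromosome 18 followed at 45.3 (35.5-57.0), with 7 of its 73 peaks in C2H2 genes. Chromosome 7 had more C2H2 peaks than chromosome 17 but stood at 24.6 per Mb. Density was lowest on chromosome 19 at 14.2 (9.12-21.2), where none of the 24 peaks was in a C2H2 gene. Chromosome density thus did not follow the C2H2 count alone.

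Zfp110, with 6 fingers, had 2 exonic peaks in its last exon. The stronger (chromosome 7, 13434950 to 13436563) had 132 tags at 15.12-fold and its summit lay in the finger array. The other had 75 tags at 10.99-fold and lay upstream of the array in coding sequence. Both were in a SICER island of 20.8 kb. The nearest Setdb1 site had 62 tags at 12.75-fold and lay 7.26 kb from the stronger summit, so neither exonic peak counted as overlapping. Closer to its starts the gene had 3 peaks at 6.69- to 8.63-fold and 2 intronic ones at 8.25-fold each, so the last exon held its highest values.

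Other gene families differed widely. Clustered protocadherins, adhesion proteins of neurons encoded by rows of long variable exons, held 30 peaks in 11 of 24 genes (45.8%, 25.6-67.2) between 37.1 and 37.9 Mb of chromosome 18, at 343.7 per Mb (231.9-490.6). Of these, 13 were in first exons, 10 in single exons and 7 in mixed ones. The strongest was in Pcdhb21 (11.68-fold, 82 tags), followed by Pcdhb18 at 8.25-fold. Other cadherins held 22 peaks in 11 of 43 genes (25.6%, 13.5-41.2), with Cdh23, a cadherin of hair cells, at 9.62-fold, Pcdh17 at 8.93-fold and Pcdh10 at 8.33-fold. Imprinted genes held 11 peaks in 10 of 35 genes (28.6%, 14.6-46.3), among them Klf14 at 7.56-fold, Cdkn1c, a cell cycle inhibitor, at 6.87-fold, Blcap at 6.49-fold and Peg3 at 6.18-fold. Klf14 and Peg3 also encode C2H2 fingers.

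Collagens held 11 peaks in 10 of 43 genes (23.3%, 11.8-38.6), and only 2 of the 11 overlapped an island. Per base their density was 41.2 per Mb (20.6-73.7), an interval that includes the 28.0 of all genes. Their highest values were 8.93-fold in Col25a1, a membrane collagen, and 7.20-fold in Col6a1, which encodes a chain of collagen VI. Of 12 mucin genes, Muc13 (6.18-fold) and Muc3 (4.81-fold) had a peak, and of 40 Hox genes, Hoxa5 (5.97-fold) and Hoxd10 (4.81-fold). Their shares, 16.7% (2.09-48.4) and 5.0% (0.611-16.9), had intervals that included the share over all genes.

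Few olfactory and vomeronasal receptor genes held an exonic peak. Olfr1414 was the 1 of 417 (0.240%, 0.00607-1.33) and Vmn1r65 the 1 of 178 (0.562%, 0.0142-3.09), both at 5.50-fold with 11 and 10 tags. No peak was found in 64 keratin genes, 57 ribosomal protein genes or 15 histone genes with distal exon sequence, for which the upper bounds of the share were 5.60%, 6.27% and 21.8%. Distal exon sequence came to 15.4 kb in histone, 44.6 kb in ribosomal protein, 80.6 kb in keratin and 117.2 kb in olfactory receptor genes. Per Mb the upper bounds were 239.7 in histone, 82.8 in ribosomal protein and 45.7 in keratin genes. Olfactory receptor genes stood at 8.53 per Mb (0.216-47.6). Each of these intervals included the 28.0 of all genes, so a lower density was not shown for these families. Vomeronasal receptor genes had 316.7 kb and 3.16 per Mb (0.0800-17.6), an interval below 28.0. Reads that align to several copies were removed upstream, and what this took from families of near-identical genes was not tested.

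**Figure D4:**
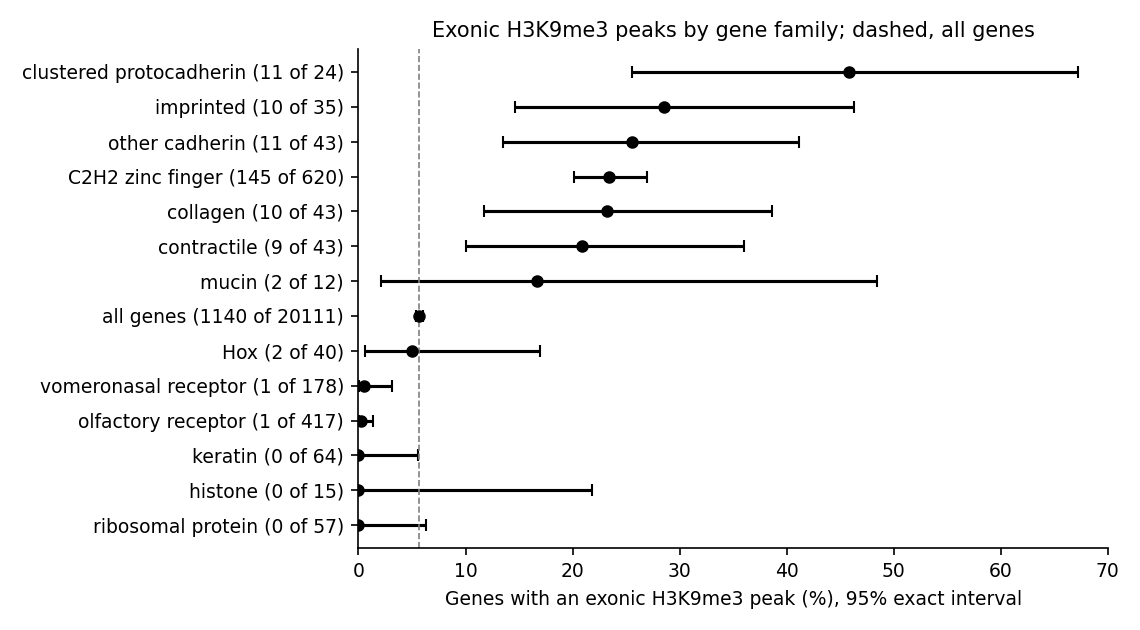
Share of genes with distal exon sequence that held an exonic H3K9me3 peak, by family, with exact 95% intervals. Numbers of genes are given beside each name and the dashed line is the 5.67% of all genes. The intervals of clustered protocadherins, imprinted genes, other cadherins, C2H2 genes, collagens and contractile genes lay above the line. The share does not allow for exon length, and per Mb the interval of collagens (20.6-73.7) included the 28.0 of all genes. The 43 contractile genes had 349.7 kb of distal exon sequence, and 31 of their 41 peaks were in Ttn.

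Contractile genes held 41 exonic peaks in 9 of 43 genes (20.9%, 10.0-36.0), and 31 of the 41 were in Ttn, which encodes titin, the giant spring of the sarcomere. Ttn had more exonic peaks than any other gene. Its peaks had 11 to 80 tags (median 17) and enrichments of 4.12- to 8.12-fold (median 5.50), with 30 in internal exons. Its exons held 287.8 peaks per Mb (195.5-408.5) and its introns 2 peaks at 11.7 per Mb (1.42-42.3), so the peaks of this gene lay in exons almost alone. The largest exon, 17.1 kb long, held 8 of them, and 18 lay in an island of 50.8 kb. A p-value below 1e-05 was reached by 12 of the 31. The other named contractile genes were Myh8, a perinatal myosin heavy chain (10.31-fold, in an exon of a noncoding transcript), Myh2, of fast fibres (6.87-fold), and Tpm1, a tropomyosin (6.39-fold).

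Most other genes with many exonic peaks also had many intronic ones. Myo18b, an unconventional myosin needed in muscle, had 10 exonic and 63 intronic peaks, and its exons were denser too, at 1224 per Mb (586.7-2250.1) against 316.1 (242.9-404.4) in its introns. Dnahc8, an axonemal dynein chain, had 9 and 58, Adamts20, a metalloprotease, 8 and 90, and Kazn 7 and 83. Among genes with 7 were also Tiam1, an activator of Rac, with 201 intronic peaks, and Ptprt, a receptor phosphatase, with 362. Spock1, a proteoglycan, and Prdm16, a zinc finger regulator, had 6 exonic peaks each and 318 and 222 intronic ones, in islands of up to 235.8 and 373.6 kb. Ntrk2, the receptor of BDNF, had 6 and 76, and Inadl, a polarity protein, 6 and 22, at 448.2 per Mb of exon (164.5-975.5) against 70.9 of intron (44.4-107.3). The protocadherin genes Pcdha11 and Pcdhgc5 had 7 and 6 exonic peaks, and in Pcdha11 the densities were 488.4 (196.4-1006.3) and 37.0 (16.9-70.3). In Dnahc8, Adamts20, Kazn, Tiam1, Ptprt, Spock1, Prdm16, Ntrk2 and Pcdhgc5 the intervals of exon and intron density overlapped. These genes were chosen for their exonic peaks, so their exon densities are a description.

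Flg2, a filaggrin family gene of the epidermis, was of the other kind, with 6 exonic peaks at 5.98- to 8.93-fold and 0 intronic ones. Of the 1140 genes, 663 (58.2%, 55.2-61.0) also had an intronic peak and 477 had none. The share with an intronic peak over all protein-coding genes was not computed, so whether 58.2% is high or low is not known. Among the 88 genes with 3 or more exonic peaks, 11 had no intronic peak. These included Flg2, Dsp (desmoplakin), Eif4g2, Tsc22d1, which the study also named, Tdrd6 (a tudor domain protein of germ cells) and Sp5. Sp5 was the only one of the 11 with 3 or more C2H2 fingers. These last genes were named after their values were seen.

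**Figure D5:**
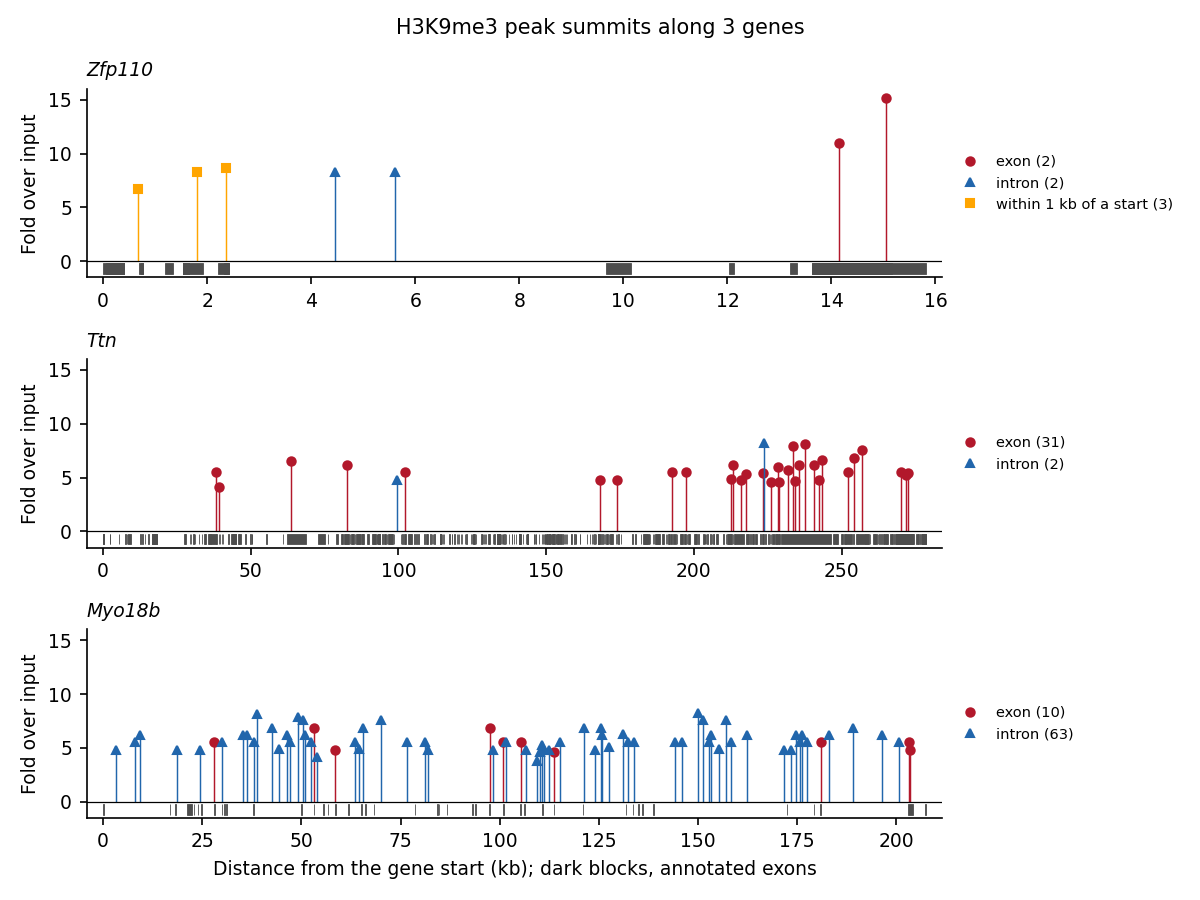
Fold enrichment of H3K9me3 peak summits along Zfp110, Ttn and Myo18b by distance from the gene start in kb, with annotated exons as dark blocks. Red circles are exonic peaks, blue triangles intronic peaks and orange squares peaks within 1 kb of a start. Ttn had 31 exonic and 2 intronic peaks, and Myo18b 10 and 63.

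The exonic peak with most tags, chosen after its value was seen, was in the 3' UTR of Slc30a4, a zinc transporter, with 748 tags at only 5.58-fold. The next, with 250 tags at 5.52-fold, was in Gm10722 at the start of the assembled chromosome 9. These were the highest tag counts beside the 188 of Hspa2 and 182 of Scrt2, whose enrichments were more than 2 times as high.

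Setdb1 sites overlapped exonic H3K9me3 peaks rarely, and the difference between exon classes was within counting error. By overlap of at least 1 bp, 14 exonic peaks met a site (0.873%, 0.478-1.46), near the 0.998% of the whole H3K9me3 list. The whole list also holds the peaks of 2000 bp or longer. Under the same limit on length the share was 0.793% between genes and 1.55% within 1 kb of a start. In last exons the overlap was 6 of 707 (0.849%) and in internal exons 3 of 565 (0.531%), an odds ratio of 1.60 (0.341-9.95). The two-sided Fisher's exact test gave p = 0.739 and, adjusted by the Benjamini-Hochberg method over 4 tests, 0.985. Against 234 of 25475 intronic peaks (0.919%) the odds ratio of exonic peaks was 0.950 (0.510-1.63), with p = 1 in Fisher's exact test before and after adjustment. These intervals leave room for differences in either direction. Coding summits made up 12 of the 14, and 1031 of all 1604 exonic peaks. The overlap share of coding summits was 1.16% (0.603-2.02), an interval that included the 0.873% of all exonic peaks. Within C2H2 genes the overlap was 4 of 231 (1.73%, 0.474-4.37). A site within 1 kb was found for 27 exonic peaks (1.68%, 1.11-2.44), near the 1.49% of the whole H3K9me3 list. It was found for 15 of 707 last exon peaks (2.12%, 1.19-3.48) and 5 of 565 internal exon peaks (0.885%, 0.288-2.05). These intervals overlapped.

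The peaks with Setdb1 were among the stronger exonic ones. Their enrichment ran from 5.18- to 14.43-fold with a median of 8.80, against 5.71 for the other 1590, and their tags had a median of 74 against 20 in all exonic peaks. All 14 lay in an island and all had a p-value below 1e-05, against 70.6% and 45.0% of the other 1590. The 14 were also longer, with a median of 998.5 bp against 444 bp. The part of length in the overlap was not tested. GC content at the summit had a median of 58.8%, against 50.5% for the rest.

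Among the 14, Scrt2, a repressor of the Snail superfamily, had 182 H3K9me3 tags at 14.43-fold and 36 Setdb1 tags at 8.72-fold, with summits 87 bp apart. Insm2, a zinc finger factor of neuroendocrine cells with 1 exon, had 130 tags at 10.31-fold and the highest Setdb1 enrichment of the set, 19.46-fold. Tbr1, a T-box factor of cortical neurons, had 10.31-fold H3K9me3 and 7.38-fold Setdb1, and Sox21, a factor of neural progenitors, 9.36- and 7.38-fold. Ntn1, the axon guidance cue netrin, had the most Setdb1 tags (90, 12.75-fold) at an H3K9me3 peak of 6.49-fold, with summits 46 bp apart.

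Hspa2, a heat shock protein of the testis that the study also named, had 188 H3K9me3 tags at 13.06-fold and 57 Setdb1 tags at 6.56-fold. Its peak was wholly exonic, and its summits were 451 bp apart. Acsl3, an acyl-CoA synthetase (9.74- and 8.64-fold), Mphosph9 (7.56 and 7.49) and Ntn1 were the 3 in internal exons. Chst2, a sulfotransferase (8.25 and 6.04), Fmo5, a monooxygenase (7.37 and 5.83), and Zfp777 (5.18 and 8.06) had theirs in last exons. Ccdc162 (9.74 and 13.42), 6430531B16Rik (7.56 and 12.08), which the study also named, and Zfp951 (7.47 and 6.71) completed the list. In Zfp777 the summits were 765 bp apart, the widest gap of the 14.

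Broad islands covered most exonic peaks. They were called from the same H3K9me3 library as the peaks, so their overlap is no independent evidence of enrichment. SICER islands overlapped 1136 of the 1604 (70.8%, 68.5-73.0), compared with 64.1% of the list. The share was 72.3% in last and 67.6% in internal exons, an odds ratio of 1.25 (0.974-1.60) with p = 0.0738 in the two-sided Fisher's exact test and 0.295 after adjustment over the 4 tests. Without Ttn, an alternative added after the data were seen, it was 1.36 (1.06-1.75) with an adjusted p of 0.0514. Against the 69.5% of intronic peaks the exonic odds ratio was 1.07 (0.953-1.19), with p = 0.275 and 0.550 after adjustment by the same exact test. With 1 peak kept per gene, that of highest fold, exonic peaks had fewer Setdb1 overlaps than intronic ones (odds ratio 0.484, 0.256-0.846, adjusted p = 0.0157 by Fisher's exact test) and more island overlaps (1.54, 1.35-1.77, adjusted p = 5.13e-10). The intronic peak kept is then the strongest of often many in its gene, and what this choice did to either result was not tested.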

How the data were processed

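ChIP-seq libraries of H3K9me3 and Setdb1 with inputs from C2C12 myoblasts were processed by the authors. Per the labels and the study's methods, reads were aligned to mm9 with Bowtie 0.12.7, keeping unique reads without PCR duplicates, and peaks were called over input with MACS 1.4 at a p-value of 0.001. Setdb1 sites were filtered further. Islands came from SICER. The tag counts deposited per peak are unscaled reads, the deposited fold enrichment is the ratio to the MACS background, the deposited score is the -log10 of the p-value multiplied by 10, and the deposited false discovery rate is a percent.

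Summits were placed on GENCODE vM1 models of NCBIM37, the same assembly as mm9. Transcripts were translated, and genes with 3 or more C2H2 motifs were called C2H2 genes. Densities used exon bases over 1 kb from every start. Shares have exact binomial (Clopper-Pearson), densities Poisson and density ratios conditional binomial 95% intervals. Overlaps were compared with Fisher's exact test, adjusted over 4 tests.

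The members and lists were chosen with earlier results of these data known. Named peaks were the 12 last and 8 internal exon peaks of highest fold with at least 20 tags and those at Setdb1 sites. Added were the 10 genes with most peaks with ties, up to 4 genes per family and a short list of genes from the study. Other genes that the study named were not on that list, such as Abca7, with an internal exon peak at 8.93-fold and 32 tags. No repeat annotation was used, and some sequences are not reported here. Scripts ran under Python 3.11.15 (pandas 2.3.3, SciPy 1.17.1, NumPy 2.4.6; figures with Matplotlib 3.10.9), and functions were tested on simulated data. Alternatives changed peak strength, distance, transcripts, overlap, peaks per gene and genes included.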

Additional observations from a re-analysis of the deposited data

How the results depend on the processing

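Of 57 recomputed values, 43 kept their direction and their side of the threshold or stayed within the interval of the value reported. Restricting to coding exons of 1 transcript per gene gave 1006 exonic peaks, put 32.3% of them in last exons against 44.1%, and turned the density ratio of last to internal exons to 2.13. A MACS p-value below 1e-05 left 730 exonic peaks, gave a density ratio of last to internal exons of 0.903 with an interval that included 1 (0.762-1.07), and raised the ratio of zinc finger to other genes from 3.78 to 5.97. Over 2 kb from every start, 47.7% lay in last exons. Without zinc finger genes, 40.5% lay in last exons and the density ratio of last to internal exons was 0.746. The odds ratio of Setdb1 overlap for exonic against intronic peaks moved from 0.950 to 1.19 with coding exons of 1 transcript, 1.002 with overlap of at least 50% of the shorter interval, 1.20 with a site within 1 kb and 1.004 without chromosome 15, all without passing the test. It passed with 1 peak per gene at 0.484, as did island overlap at 1.54. Without Ttn, chosen after seeing the data, the density ratio of last to internal exons was 0.902 with an interval that included 1 (0.805-1.01). The cause of these shifts was not tested. No paired analysis was possible because there was 1 library per group. With 14 overlaps, differences in Setdb1 overlap smaller than the wide intervals were not detectable.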
